A study of Mus musculus with 6 samples.

Results

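The genes for the subunits of oxidative phosphorylation, in nuclear and in mitochondrial DNA, were described in whole lungs of mouse embryos. Members were taken from the deposited gene table by symbol, with a name pattern for the Nduf, Sdh, Uqcr, Cox and Atp5 families and for the protein-coding mt- genes. The pattern gave 111 of the 55359 rows of the table, 98 nuclear and 13 mitochondrially encoded, under 110 symbols because Atp5o stands on 2 rows. Of the nuclear rows, 83 are subunits, 8 are complex I assembly factors (Ndufaf1 to Ndufaf8), 5 are little-expressed paralogous copies and 2 are related proteins (Ndufa4l2 and Cox7a2l). All libraries came from C57 embryos at E18.5, shortly before birth. In 3 of them the genotype label is wild type (wild type 1 to 3) and in the other 3 it is Prmt5 knockdown (knockdown 1 to 3). Prmt5 encodes an arginine methyltransferase. The series text calls the second group a knockout in mesenchyme that expresses Dermo1, another name of Twist2, whereas the labels call it a knockdown in lung mesenchyme, and neither gives the alleles. RNA was taken from the whole lung, so cells outside the mesenchyme are in every library. In such bulk RNA, fewer cells of a type and less RNA per cell cannot be told apart. Nothing states which embryos share a litter or an extraction, so p-values measure only the spread between these libraries, which may be technical.

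Complexes I to IV of the inner mitochondrial membrane pass electrons from NADH and succinate to oxygen, and complexes I, III and IV pump protons as they do so. Complex V, the ATP synthase, lets the protons back and makes ATP. Most subunits are encoded in the nucleus and imported, while a few hydrophobic core subunits of complexes I, III, IV and V are encoded and translated in the mitochondrion itself. Complex II is wholly nuclear. Heart and other muscle carry the highest levels of these complexes, and muscle replaces several complex IV subunits with isoforms of its own.

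The libraries held 14383415 to 19262837 counts. Across 17728 genes with enough counts to be tested, edgeR's quasi-likelihood test gave 6 (0.0338%) an adjusted p (Benjamini-Hochberg) under 0.05. Prmt5 itself stood at 47.4 ± 0.777 CPM (counts scaled to library depth) in wild type and 44.7 ± 4.49 CPM in knockdown libraries (SD, n = 3 each), an edgeR log2 fold change of -0.08 with an adjusted p of 0.682. The labels are therefore not checked by this gene. Heart muscle transcripts differed widely between libraries. Summed over 25 cardiomyocyte genes, the level was 210.3, 252.3 and 1705 FPKM (the deposited level, scaled to gene length and library depth) in wild type and 2359, 5062 and 1825 FPKM in knockdown libraries. Wild type 3 and all 3 knockdown libraries were therefore several-fold above wild type 1 and 2, and knockdown 2 was the highest.

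Of the 111 members, 103 passed the low-count filter, 90 nuclear and all 13 mitochondrial. The 8 that did not were the copies Ndufa11b, Ndufb4c, Ndufb11b, Ndufs6b and Cox6c2, the testis isoforms Cox7b2 and Cox8c, and the second Atp5o row. None of these exceeded 10 counts in any library. Levels between genes were compared by wild type mean FPKM. The median over nuclear subunits was 24.4 FPKM for complex I (36 genes), 36.9 for complex II (4), 45.2 for complex III (8), 31.8 for complex IV (15) and 32.2 for complex V (17). Within complex I the level ran from 3.69 FPKM for Ndufb4 to 89.8 for Ndufb11, and within complex V from 2.51 for Atp5g1 to 177 for Atp5a1. The mitochondrially encoded genes ran from 3.63 FPKM for mt-Nd3 to 6230.3 for mt-Co1.

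No member passed edgeR's adjusted threshold, and the smallest adjusted p was 0.116, for Ndufa6. Nearly all nuclear members stood higher in the knockdown-labelled libraries, with edgeR log2 fold changes from -0.17 for Atp5g2 to 2.70 for Cox6a2. Of 90 tested, 89 had a positive value, against 52.9% of all genes tested, and the median was 0.40 against 0.01 for all genes. At an unadjusted p under 0.05, edgeR counted 64 of 90 as higher, against 8.48% of all genes, and 0 as lower, against 8.52%. In 53 of 90 every knockdown library lay above every wild type library, against 10.8% of all genes, and in 0 the reverse, against 12.4%. The genes are not independent of each other, since whatever differs between libraries can touch many at a time. An overlap between groups is judged on CPM scaled with edgeR's TMM factors. The count of 64 was 33 without wild type 1 (against 4.43% of all genes in that fit), 28 without wild type 2 (against 5.49%) and 34 without knockdown 2 (against 7.53%). It was 70 without wild type 3 (against 9.19%), 73 without knockdown 1 (against 9.65%) and 51 without knockdown 3 (against 7.05%). DESeq2, the other count test run, called 24 nuclear members higher at its adjusted threshold, against 2.15% of all genes it gave an adjusted p. Of these, 6 are in complex I, 1 in II, 4 in III, 6 in IV and 7 in V. The 13 mitochondrial genes all had positive log2 fold changes with a median of 0.62, but 0 had an unadjusted edgeR p under 0.05 and in 0 were the groups apart. Without knockdown 2 that median was 0.20. Without knockdown 1 it was 0.91, with 10 of 13 higher at an unadjusted p under 0.05, against 9.65% of all genes in that fit. The heart muscle genes put wild type 1 and 2 lowest and knockdown 2 highest. With their level as a covariate the median was 0.11 for nuclear members and -0.16 for mitochondrial genes. The label and the heart level cannot be told apart by this fit.

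**Figure D1:**
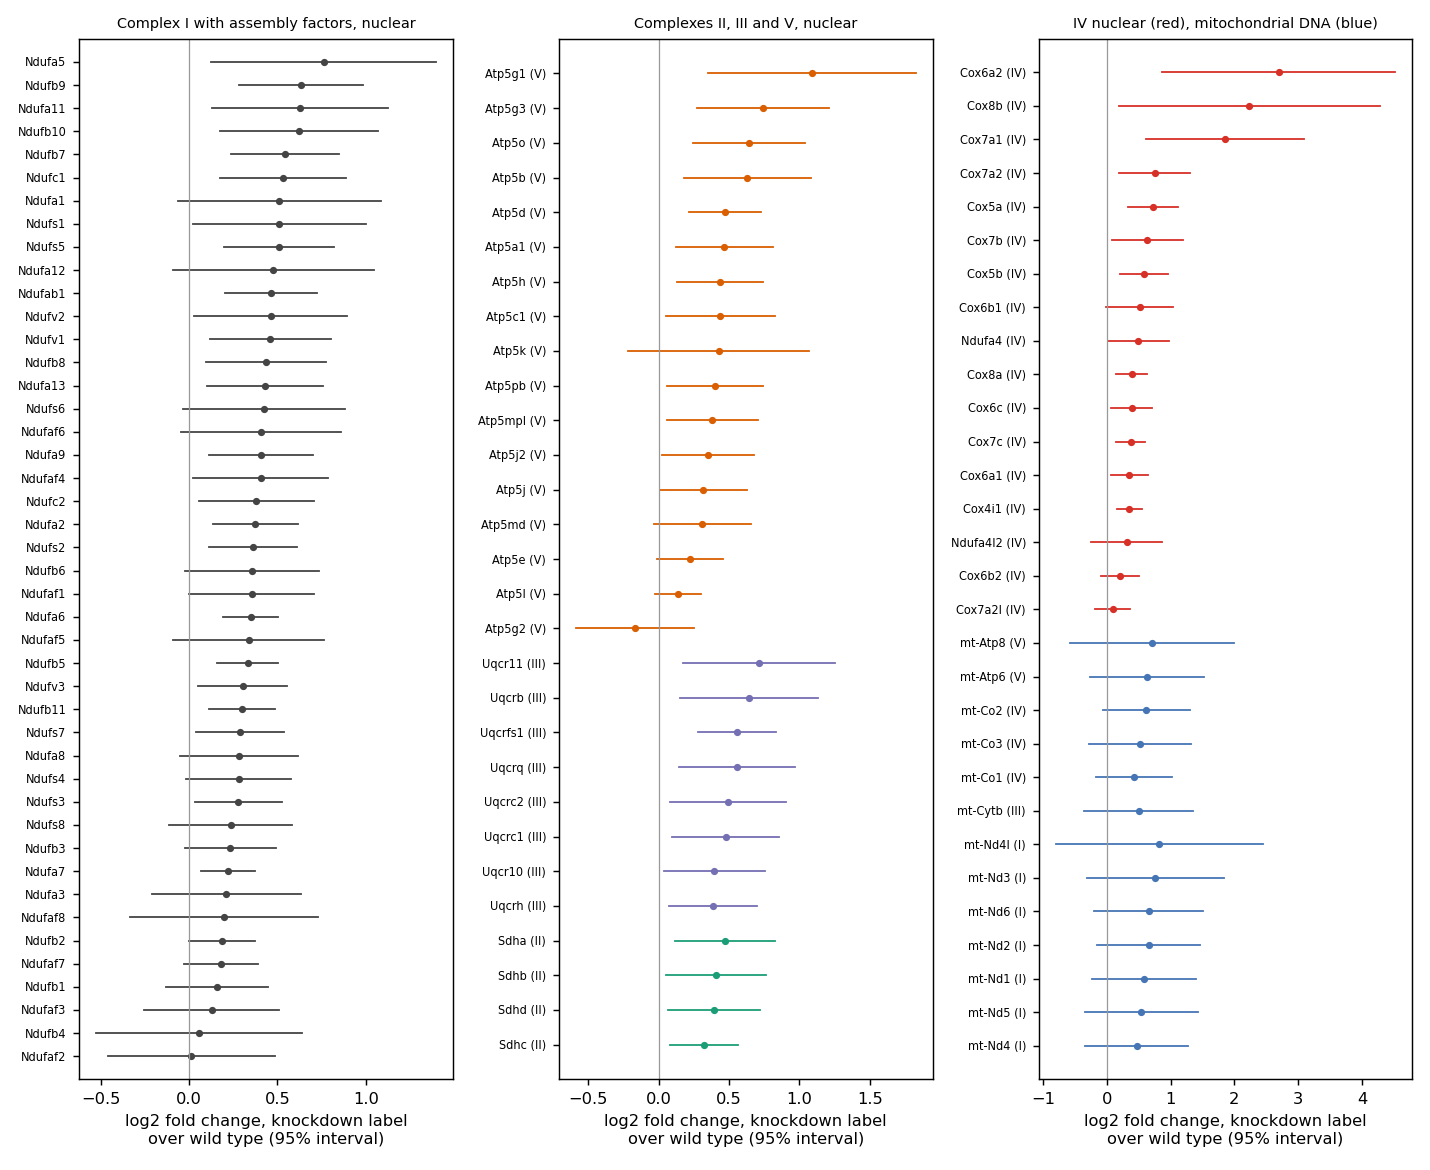
Log2 fold change of each tested member, knockdown-labelled over wild type libraries (3 against 3), with its 95% interval from edgeR, in 3 panels by complex and genome, the Ndufaf assembly factors being shown with complex I. The intervals of 64 nuclear members lie above 0, Atp5g2 is the one member on the negative side, and all 13 mitochondrial intervals cross 0.

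Complex I takes electrons from NADH. Of its 36 nuclear subunits tested, 36 had positive log2 fold changes, against 52.9% of all genes, with a median of 0.38. At an unadjusted edgeR p under 0.05, 25 were higher, against 8.48% of all genes. In 21 every knockdown library lay above every wild type library, against 10.8%. The log2 fold changes ran from 0.06 for Ndufb4 to 0.76 for Ndufa5. The 7 subunits of the catalytic core had a median of 0.36 and the 29 accessory subunits one of 0.38. Ndufa6, an accessory subunit of the peripheral arm, stood at 35.1, 38.1 and 37.2 FPKM in wild type and 47.3, 47.3 and 47.1 FPKM in knockdown libraries. This is a log2 fold change of 0.35 ± 0.07 (SE), adjusted p 0.116 in edgeR. The knockdown values nearly coincide and lie above all wild type values. Ndufb5, an accessory subunit of the proton-pumping membrane arm, stood at 11.2, 10.8 and 12.3 against 14.2, 14.8 and 14.5 FPKM, again with close values inside each group. In edgeR this gave 0.33 ± 0.07 (log2 fold change and SE), adjusted p 0.138. Ndufb9, of the same arm, was more spread out, at 35.4, 31.8 and 40.3 against 46.1, 65.2 and 56.6 FPKM. Its log2 fold change in edgeR was 0.63 ± 0.15 (SE, adjusted p 0.146). Its highest value was in knockdown 2 and the groups did not overlap. Ndufb7 stood at 7.19, 7.20 and 8.19 against 9.20, 12.6 and 11.3 FPKM. For Ndufb7 edgeR gave a log2 fold change of 0.54 ± 0.13 (SE, adjusted p 0.146). Ndufb11, the most abundant nuclear complex I subunit per length and an X-linked gene, stood at 93.5, 82.4 and 93.5 against 108, 117 and 109 FPKM, with the groups apart. Among core subunits, the NADH-binding Ndufv1 stood at 22.7, 20.3 and 26.4 against 29.2, 37.7 and 29.1 FPKM, groups apart. The iron-sulfur subunit Ndufs1 stood at 8.86, 8.79 and 12.3 against 11.7, 18.3 and 12.8 FPKM, and here wild type 3 lay above knockdown 1. The 8 assembly factors, which build the complex but are not part of it, had a lower median log2 fold change of 0.27. All 8 were positive, against 52.9% of all genes. In 5 every knockdown library lay above every wild type library, against 10.8%. At an unadjusted p under 0.05, 2 of the 8 were higher, against 8.48% of all genes. Ndufaf6, the least abundant tested member of this group by mean FPKM, stood at 2.18, 2.14 and 2.14 against 2.92, 3.04 and 2.69 FPKM, without overlap. That is 0.41 ± 0.19 on the log2 scale (edgeR, SE), with an adjusted p of 0.332.

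Complex II, succinate dehydrogenase, is at the same time an enzyme of the citric acid cycle. All 4 of its subunits stood higher in every knockdown library than in any wild type library, against 10.8% of all genes. Their median log2 fold change was 0.40. All 4 were higher at an unadjusted edgeR p under 0.05, against 8.48% of all genes. The flavoprotein Sdha stood at 40.1, 41.2 and 49.0 FPKM in wild type and 53.0, 73.5 and 55.1 FPKM in knockdown libraries. The log2 difference in edgeR, 0.47 ± 0.15 (SE), had an adjusted p of 0.211. The iron-sulfur subunit Sdhb stood at 29.4, 28.2 and 33.6 against 34.6, 49.5 and 37.6 FPKM. The edgeR log2 fold change was 0.41 ± 0.15 (SE) with an adjusted p of 0.249. Wild type 3 and knockdown 1 are neighbours in both genes. The membrane anchor Sdhc stood at 21.2, 21.1 and 24.9 against 25.5, 30.5 and 28.6 FPKM. This is a log2 fold change of 0.32 ± 0.10 (SE), adjusted p 0.209 in edgeR. The other anchor, Sdhd, stood at 55.7, 53.3 and 67.4 against 73.6, 90.7 and 68.6 FPKM. In edgeR this gave 0.39 ± 0.14 (log2 fold change and SE), adjusted p 0.236. In all 4 genes knockdown 2 was the highest library and wild type 3 the highest of its group.

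Complex III passes electrons from ubiquinol to cytochrome c. All 8 nuclear subunits were higher at an unadjusted edgeR p under 0.05, against 8.48% of all genes. The median log2 fold change was 0.53, with a range of 0.38 to 0.71. In 5 the groups were apart, with knockdown above wild type, against 10.8% of all genes. The Rieske iron-sulfur protein Uqcrfs1 stood at 38.1, 41.9 and 46.9 FPKM in wild type and 58.5, 71.1 and 58.6 FPKM in knockdown libraries. Its log2 fold change in edgeR was 0.56 ± 0.12 (SE, adjusted p 0.132). All 3 knockdown values lay clear of the wild type values. The core protein Uqcrc1 stood at 28.1, 27.7 and 31.4 against 31.9, 49.4 and 40.7 FPKM, with wild type 3 and knockdown 1 almost equal. For Uqcrc1 edgeR gave a log2 fold change of 0.48 ± 0.16 (SE, adjusted p 0.222). Of the small subunits, Uqcrq stood at 22.8, 20.4 and 26.2 against 27.3, 42.0 and 33.5 FPKM, apart but close between wild type 3 and knockdown 1. That is 0.56 ± 0.17 on the log2 scale (edgeR, SE), with an adjusted p of 0.203. Uqcr11 stood at 43.4, 39.6 and 61.3 against 57.5, 95.1 and 85.4 FPKM. The log2 difference in edgeR, 0.71 ± 0.23 (SE), had an adjusted p of 0.211. Uqcrb stood at 73.8, 54.8 and 69.0 against 74.4, 126 and 109 FPKM. The edgeR log2 fold change was 0.64 ± 0.21 (SE) with an adjusted p of 0.213. In Uqcr11 wild type 3 lay above knockdown 1. For Uqcrb the 2 groups do not overlap in FPKM but touch in TMM-scaled CPM, where wild type 1 lay above knockdown 1. The hinge protein Uqcrh, the most abundant of the complex per length, stood at 92.1, 74.8 and 105 against 116, 131 and 110.1 FPKM, with the groups apart. This is a log2 fold change of 0.38 ± 0.13 (SE), adjusted p 0.227 in edgeR.

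Complex IV, cytochrome c oxidase, reduces oxygen. Of 15 nuclear subunits tested, 13 were higher at an unadjusted edgeR p under 0.05, against 8.48% of all genes. In 10 the groups were apart, with knockdown above wild type, against 10.8%, and the median log2 fold change was 0.52. Without the 3 heart and muscle isoforms described next, 12 subunits were left, with 10, 8 and 0.44 for the same quantities. Cox5a, a subunit on the matrix side, stood at 11.3, 10.4 and 13.2 FPKM in wild type and 16.4, 23.7 and 17.7 FPKM in knockdown libraries. In edgeR this gave 0.72 ± 0.17 (log2 fold change and SE), adjusted p 0.146. Its groups were well apart. The regulatory subunit Cox4i1 stood at 138, 128 and 145 against 179, 185 and 165 FPKM. Its log2 fold change in edgeR was 0.35 ± 0.08 (SE, adjusted p 0.146). The small membrane subunit Cox7c stood at 13.9, 15.3 and 16.6 against 19.3, 19.8 and 20.7 FPKM. For Cox7c edgeR gave a log2 fold change of 0.37 ± 0.10 (SE, adjusted p 0.166). Both were tight inside each group. Cox6b1, which faces the intermembrane space, stood at 140.3, 112 and 162 against 149, 259.5 and 186 FPKM and its groups overlapped. That is 0.52 ± 0.22 on the log2 scale (edgeR, SE), with an adjusted p of 0.302. Its testis paralogue Cox6b2 stood at 22.1, 21.0 and 25.1 against 31.3, 24.1 and 24.3 FPKM, also overlapping. The log2 difference in edgeR, 0.21 ± 0.13 (SE), had an adjusted p of 0.44. Ndufa4, named for complex I but a subunit of complex IV, stood at 37.3, 27.8 and 42.5 against 39.7, 61.0 and 51.9 FPKM. The edgeR log2 fold change was 0.50 ± 0.20 (SE) with an adjusted p of 0.281. Its paralogue Ndufa4l2, known as a hypoxia-responsive gene, stood at 84.7, 92.1 and 64.2 against 139, 79.5 and 84.1 FPKM, with the highest value in knockdown 1. This is a log2 fold change of 0.31 ± 0.24 (SE), adjusted p 0.558 in edgeR. Cox7a2l, the other related protein taken in by the name pattern, stood at 96.0, 95.1 and 95.5 against 123, 88.2 and 97.5 FPKM. In edgeR this gave 0.09 ± 0.12 (log2 fold change and SE), adjusted p 0.742. Without knockdown 1 its log2 fold change was -0.04.

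The widest differences of any member were in the heart and skeletal muscle isoforms of complex IV, whose genes stand on chromosome 7 in the deposited table. Cox6a2 stood at 4.76, 4.91 and 29.2 FPKM in wild type and 49.9, 142 and 60.7 FPKM in knockdown libraries. Its log2 fold change in edgeR was 2.70 ± 0.77 (SE, adjusted p 0.185). It spans a wide range inside each group, with wild type 3 near the knockdown libraries. Its ubiquitous partner Cox6a1 stood at 119, 122 and 129 against 130.2, 175 and 171 FPKM. For Cox6a1 edgeR gave a log2 fold change of 0.36 ± 0.12 (SE, adjusted p 0.227). Cox6a2 made up 3.84, 3.88 and 18.503% of the FPKM of the pair in wild type 1 to 3, and 27.7, 44.7 and 26.2% in knockdown libraries. The mean was 8.74 ± 8.46% in wild type and 32.9 ± 10.3% in knockdown libraries (SD, n = 3 each). Cox7a1 stood at 2.17, 2.34 and 7.21 against 8.82, 19.5 and 14.5 FPKM. That is 1.86 ± 0.52 on the log2 scale (edgeR, SE), with an adjusted p of 0.181. Its partner Cox7a2 stood at 33.0, 20.0 and 42.5 against 56.2, 52.5 and 53.1 FPKM, with the knockdown libraries close together. The log2 difference in edgeR, 0.75 ± 0.24 (SE), had an adjusted p of 0.207. Cox8b stood at 1.36, 1.54 and 12.3 against 11.9, 39.2 and 21.1 FPKM. The edgeR log2 fold change was 2.24 ± 0.86 (SE) with an adjusted p of 0.265. Wild type 3 lay above knockdown 1 in this gene. The partner Cox8a stood at 143, 132 and 144 against 159, 202 and 192 FPKM, with the groups apart. This is a log2 fold change of 0.39 ± 0.10 (SE), adjusted p 0.172 in edgeR. Cox8b was 0.944, 1.16 and 7.88% of the FPKM of Cox8b and Cox8a together in wild type and 6.96, 16.3 and 9.88% in knockdown libraries. Its counts were few in wild type 1 and 2, at 8 in each, as were those of Cox7a1, at 19 and 18. In these 3 isoforms wild type 1 and 2 are the lowest libraries and knockdown 2 is the highest, as they are in the summed cardiomyocyte genes. Cox6a2 is itself in that sum. The mean log2 CPM of the list without Cox6a2 has the same lowest and highest libraries.

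**Figure D2:**
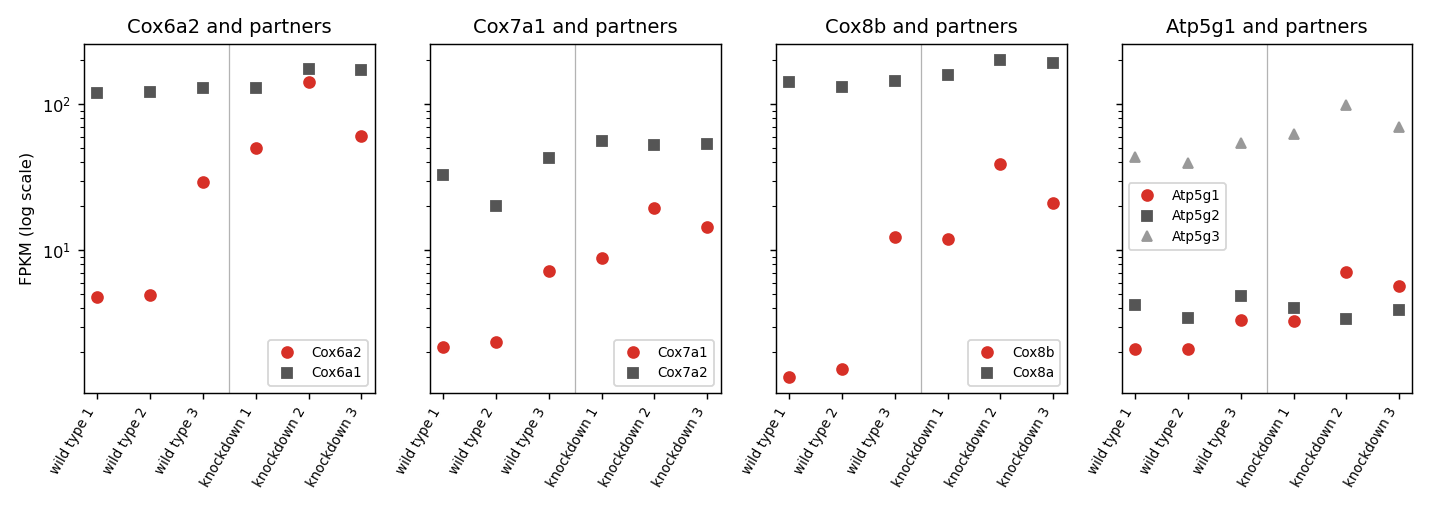
FPKM on a log scale of muscle isoforms of complex IV (red circles) and of the c-subunit gene Atp5g1, with their partners (grey), in each of 6 libraries, wild type left of the line and knockdown right. Cox6a2, Cox7a1 and Cox8b are lowest in wild type 1 and 2 and highest in knockdown 2, while the partners move over a much narrower range.

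Complex V is the ATP synthase. Of 17 nuclear subunits tested, 16 had positive log2 fold changes, against 52.9% of all genes, with a median of 0.43 over the 17. At an unadjusted edgeR p under 0.05, 12 were higher, against 8.48% of all genes. In 8 the groups were apart, with knockdown above wild type, against 10.8%. The alpha subunit of the catalytic head, Atp5a1, stood at 165, 166 and 199 FPKM in wild type and 214, 292 and 230.2 FPKM in knockdown libraries. In edgeR this gave 0.47 ± 0.15 (log2 fold change and SE), adjusted p 0.204. The catalytic beta subunit Atp5b stood at 124, 124 and 165 against 171, 265 and 204 FPKM. Its log2 fold change in edgeR was 0.63 ± 0.19 (SE, adjusted p 0.198). In both, wild type 3 and knockdown 1 were the closest values of the opposite groups. Atp5d of the central stalk stood at 65.9, 57.1 and 68.2 against 78.1, 96.8 and 91.9 FPKM. For Atp5d edgeR gave a log2 fold change of 0.47 ± 0.11 (SE, adjusted p 0.146). Atp5o of the peripheral stalk, on its expressed row, stood at 38.4, 43.2 and 49.2 against 53.6, 81.6 and 70.2 FPKM. That is 0.64 ± 0.17 on the log2 scale (edgeR, SE), with an adjusted p of 0.167. Both were apart between groups. The c-ring of the rotor is built from identical mature proteins made by the genes Atp5g1, Atp5g2 and Atp5g3. Log2 fold changes were positive for Atp5g3 and Atp5g1, and that of Atp5g2 lay within its SE of 0. Atp5g3, the most abundant of them, stood at 43.6, 39.8 and 54.4 against 62.4, 99.0 and 69.8 FPKM. The log2 difference in edgeR, 0.74 ± 0.20 (SE), had an adjusted p of 0.172. Atp5g1 stood at 2.09, 2.11 and 3.33 against 3.30, 7.09 and 5.71 FPKM, with wild type 3 and knockdown 1 level. The edgeR log2 fold change was 1.09 ± 0.31 (SE) with an adjusted p of 0.184. Atp5g2 stood at 4.23, 3.45 and 4.84 against 4.0, 3.36 and 3.87 FPKM and was the one tested member with a negative log2 fold change. This is a log2 fold change of -0.17 ± 0.18 (SE), adjusted p 0.688 in edgeR. A copy, Gm10175, shares 33.1% of the 150-base windows of Atp5g2 transcripts, so its count is uncertain.

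The 13 mitochondrial genes supply 7 subunits of complex I, 1 of complex III, 3 of complex IV and 2 of complex V. They made up 1.95, 2.04 and 2.29% of all counts in wild type and 1.67, 4.12 and 3.09% in knockdown libraries. The means were 2.09 ± 0.176% and 2.96 ± 1.23% (SD, n = 3 each), which a two-sided exact permutation test did not separate (p = 0.4). The 98 nuclear members, tested or not, together made up 0.556, 0.530 and 0.647% against 0.699, 0.928 and 0.770%, without overlap (exact permutation p = 0.1, the smallest that 3 against 3 can give). Knockdown 1 thus had the lowest mitochondrial share of the 6 libraries and knockdown 2 the highest, whereas the nuclear share was above wild type in both. Counts of mitochondrial genes per count of nuclear members were 3.51, 3.84 and 3.54 in wild type and 2.39, 4.44 and 4.01 in knockdown libraries (exact permutation p = 1.0).

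Among single genes, mt-Co1, the catalytic core of complex IV, stood at 5762, 6361 and 6568 FPKM in wild type and 5523, 11185 and 8580.0 FPKM in knockdown libraries. In edgeR this gave 0.43 ± 0.25 (log2 fold change and SE), adjusted p 0.433. mt-Cytb of complex III stood at 3002, 3009 and 3674 against 2206, 6494 and 5058 FPKM. Its log2 fold change in edgeR was 0.50 ± 0.36 (SE, adjusted p 0.531). Knockdown 1 was the lowest and knockdown 2 the highest library for both. In complex I, mt-Nd1 stood at 2392, 2432 and 2859 against 1947, 5537 and 4042 FPKM. For mt-Nd1 edgeR gave a log2 fold change of 0.58 ± 0.34 (SE, adjusted p 0.445). mt-Nd5 stood at 985, 955 and 1159.5 against 715, 2276 and 1538 FPKM. That is 0.54 ± 0.38 on the log2 scale (edgeR, SE), with an adjusted p of 0.516. mt-Nd6, the one of the 13 that the table places on the minus strand, stood at 1199, 1034 and 1472 against 981, 2860.1 and 2033 FPKM. The log2 difference in edgeR, 0.66 ± 0.36 (SE), had an adjusted p of 0.404. It shows the same order inside the knockdown group as the genes of the other strand. The other complex I genes of high level, mt-Nd2 at 1018, 997 and 1192 against 879, 2463 and 1728 FPKM and mt-Nd4 at 967, 989 and 1134 against 718, 2013 and 1565 FPKM, had log2 fold changes of 0.66 and 0.47. The most abundant of the 13 kept similar shares of their counts, and the genes of few counts did not. mt-Co1 was 42.0 to 51.1% of their counts over the 6 libraries, mt-Cytb 15.1 to 18.8% and mt-Nd1 11.1 to 12.9%. mt-Nd4l ran from 0.00171 to 0.00899%, mt-Nd3 from 0.00342 to 0.00929% and mt-Atp8 from 0.0140 to 0.0333%. In each of the 13 genes knockdown 2 was the highest library, knockdown 1 the lowest of its group and wild type 3 the highest of its group.

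**Figure D3:**
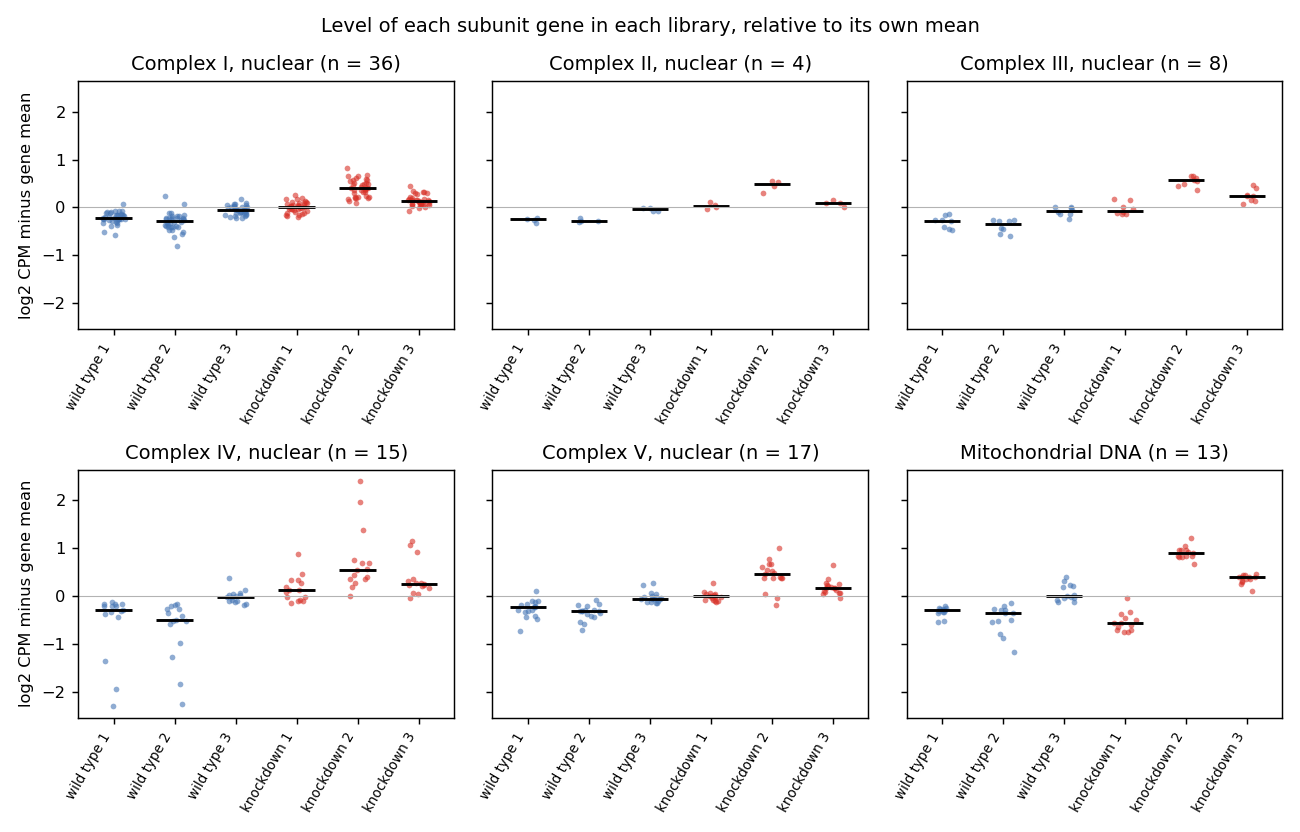
Log2 CPM of each tested subunit gene minus its mean over the 6 libraries (points), by complex, with the median as a black line, for wild type (blue) and knockdown-labelled (red) libraries. Nuclear medians rank wild type 1 and 2 lowest and knockdown 2 highest, while the median of the 13 mitochondrial genes is lowest in knockdown 1, the lowest library for 7 of them.

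The level of a mitochondrial gene in the table also depends on where its fragments were assigned. The mouse nuclear genome holds stretches copied from mitochondrial DNA, some of which are annotated as genes of their own. Windows of 150 bases, the read length, were taken from the GENCODE M21 transcripts of each mitochondrial gene and looked up in all other annotated genes. The windows shared were 97.0% for mt-Nd3, 98.0% for mt-Nd4l, 99.4% for mt-Co2, 99.8% for mt-Co3 and 99.4% for mt-Atp6, and these 5 genes had mean levels of 4.93 to 75.3 FPKM over the 6 libraries. For mt-Nd4 the share was 59.2% and for mt-Co1 23.6%. Of the 5, mt-Co2 stood at 49.2, 55.1 and 73.2 FPKM in wild type and 56.7, 124 and 93.7 FPKM in knockdown libraries. The edgeR log2 fold change was 0.62 ± 0.29 (SE) with an adjusted p of 0.328. mt-Co3 stood at 27.2, 23.8 and 40.0 against 25.5, 62.4 and 43.5 FPKM, and mt-Atp6 at 25.0, 25.1 and 44.3 against 26.5, 70.5 and 50.01 FPKM. These have the order of libraries of the abundant genes inside the knockdown group. mt-Nd3 and mt-Nd4l stood at no more than 11.5 FPKM in any library. The share of windows was 0 for mt-Nd1, mt-Nd2, mt-Nd5, mt-Nd6, mt-Cytb and mt-Atp8. The first 5 of these 6, together with mt-Nd4 and mt-Co1, had mean levels of 1231 to 7329.9 FPKM. The sixth, mt-Atp8, a short gene that overlaps mt-Atp6, stood at 32.0 FPKM, with 22.8, 14.0 and 35.9 FPKM in wild type and 16.4, 67.1 and 35.9 FPKM in knockdown libraries. Only annotated genes were searched, so a nuclear copy without annotation would give a share of 0. mt-Atp8 stands between mt-Co2 and mt-Atp6 in mitochondrial DNA, and both of these have identical copies on chromosome 1. The annotated copies also carried counts. Gm28661, identical to mt-Co2 over 681 aligned bases, had 279 to 667 counts per library, and Gm28437, identical to mt-Co3 over 783 bases, had 193 to 439. Gm10925, identical to mt-Atp6 over 678 bases, had 286 to 677. How the authors' counting treated fragments that fit more than 1 place is not given in the sources used here, so the levels of the 5 genes, and the part of mt-Nd4 and mt-Co1 that is shared, are uncertain.

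Stretches of 2 pairs of gene and copy from GENCODE M21 show how little separates them, with the differing bases in capitals. Gm28438 differs from mt-Nd3 by T3C in 345 aligned bases, counted from 1 at the gene's first base, and mt-Nd3 lies on the mitochondrial chromosome from base 9459 to 9806. Gm29216 matches the last 492 bases of mt-Co1 (base 5328 to 6872 of that chromosome) and differs at 6, the first being T1056A, all within its first 13 bases.
mt-Nd3, bases 1 to 32: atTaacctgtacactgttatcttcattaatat
Gm28438: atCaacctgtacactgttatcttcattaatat
mt-Co1, bases 1054 to 1085: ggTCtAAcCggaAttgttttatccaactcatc
Gm29216: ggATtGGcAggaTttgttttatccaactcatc

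**Figure D4:**
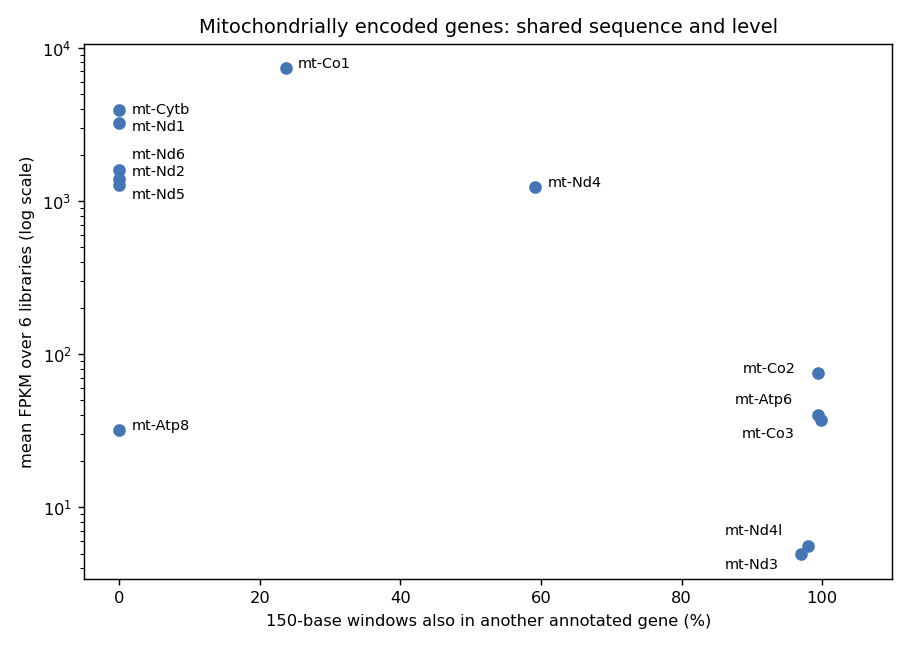
Share of 150-base windows found in another annotated gene (horizontal, %) and mean FPKM over 6 libraries on a log scale (vertical) of the 13 mitochondrial genes. The 5 genes shared at 97.0% or more stood at 75.3 FPKM or below, and the 7 genes above 1000 FPKM were shared at 59.2% or less. mt-Atp8 was low with no window in another annotated gene, and copies without annotation were not searched.

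The 6 libraries were ranked alike by most nuclear members, whatever their complex. Median deviations from the gene's own mean, on the log2 CPM scale over 90 nuclear members, were -0.23, -0.30 and -0.05 in wild type and 0.02, 0.42 and 0.16 in knockdown libraries. Knockdown 2 was the highest library for 78 of 90, against 19.5% of all genes tested. Wild type 3 was the highest of its group for 73 of 90, against 36.1%. The step between the nearest libraries of opposite label was small. Knockdown 1 exceeded wild type 3 in 61 of 90 nuclear members, with a median ratio of 1.06, and in 0 of 13 mitochondrial genes, with a median ratio of 0.641. Over all genes tested it did so in 50.2%, with a median ratio of 1.00. Wild type 3 in turn exceeded wild type 1 in 78 of 90 nuclear members, with a median ratio of 1.13, although both carry the same genotype label. For this pair the share over all genes tested was 50.3%, with a median ratio of 1.00.

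Heart muscle genes ranked the libraries in much the same way. The mean log2 CPM of 24 cardiomyocyte genes (Cox6a2 left out) was 3.16, 3.49 and 5.95 in wild type and 6.28, 7.96 and 6.29 in knockdown libraries. All 25 genes of the list, Cox6a2 included, had positive log2 fold changes, against 52.9% of all genes, with a median of 2.14. At an unadjusted edgeR p under 0.05, 17 were higher, against 8.48% of all genes. The ventricular light chain Myl2 stood at 0.251, 0.463 and 2.77 FPKM in wild type and 3.50, 482 and 18.6 FPKM in knockdown libraries, by far the highest in knockdown 2. Cardiac troponin I, Tnni3, stood at 6.73, 9.37 and 27.7 against 44.0, 117 and 38.4 FPKM. The natriuretic peptide gene Nppb was at 0 in wild type 1 and 2, and no gene of the list was at 0 in all libraries. By mean log2 CPM of the heart genes, knockdown 1 and knockdown 3 were almost level, with a median ratio of 1.00 over the 24 genes. They were not alike in every heart gene, with 3.50 and 18.6 FPKM for Myl2. Summed over the 25 genes, the level was 2359 FPKM in knockdown 1 and 1825 FPKM in knockdown 3. Between these same libraries knockdown 3 was higher in 65 of 90 nuclear members, at a median ratio of 1.10, and in 13 of 13 mitochondrial genes, at 2.02. Over all genes tested it was higher in 49.1%, at a median ratio of 0.995. Skeletal muscle genes summed to 116.3, 35.7 and 769 FPKM against 323, 71.4 and 1935 FPKM, lowest of its group in knockdown 2. All 13 tested had positive log2 fold changes, against 52.9% of all genes, with a median of 1.28. At an unadjusted edgeR p under 0.05, 0 were higher, against 8.48% of all genes. Knockdown 1 and 3 thus differed in skeletal muscle genes, and the part of this in the result was not tested. Of brown fat, another tissue rich in these complexes, 10 listed genes summed to 13.5 to 29.9 FPKM in wild type and 34.9 to 69.4 FPKM in knockdown libraries. Of the 8 tested, 5 had positive log2 fold changes, the median was 0.97, and 3 (Fabp4, Ppargc1a and Cox8b, the last also a member described above) were higher at an unadjusted edgeR p under 0.05, against 8.48% of all genes. The defining gene Ucp1 did not exceed 0.170 FPKM in any library, and its highest level was in wild type 2. The part of this list in the result was not tested.

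With the cardiomyocyte level as a covariate in edgeR, the median log2 fold change of the 90 nuclear members was 0.11, with 69 positive (against 51.6% of all genes) and 3 at an unadjusted p under 0.05 and higher (against 3.34%) and 0 lower (against 3.64%). The 3 were Ndufa6, Cox6a2 and Ndufa4l2. Their share is about that over all genes, and the smallest adjusted p of the nuclear members in this edgeR fit was 0.696. The median of the 13 mitochondrial genes was -0.16, with 0 positive. The heart level of the wild type libraries, 3.16 to 5.95, does not reach that of the knockdown libraries, 6.28 to 7.96, so the label and the heart level cannot be told apart here by this fit. The log2 fold change of Ndufa6 was 0.32 against 0.35 without the covariate. Cox4i1 was at 0.22 against 0.35, Uqcrfs1 at 0.25 against 0.56, and Sdha at 0.06 against 0.47. Without the covariate, lists of lung and blood cell types went different ways. All 10 alveolar type 1 genes had negative log2 fold changes (median -0.50), with 8 lower at an unadjusted p under 0.05, and so did all 12 endothelial genes (median -0.44), with 10 lower, against 8.52% of all genes. All 10 ciliated cell genes were positive (median 0.32), with 6 higher, against 8.48%. Of 9 alveolar type 2 genes 4 were positive (median -0.06), and of 9 erythroid genes 5 were (median 0.04), with 0 in either list at an unadjusted p under 0.05. Of 9 fibroblast genes 2 were higher and 3 lower (median 0.15), and of 7 pericyte genes 1 was higher and 1 lower (median -0.09). Over all genes 8.48% were higher and 8.52% lower by this measure. With the covariate the median was -0.51 for type 1 genes (5 lower) and -0.47 for endothelial genes (8 lower), against 3.64% of all genes. It was 0.36 for ciliated cell genes (5 higher), against 3.34%. For type 2, erythroid, fibroblast and pericyte genes it was 0.13, 0.56, 0.20 and 0.32. Summed levels were 1655 to 1817 FPKM in wild type against 1106 to 1342 FPKM for type 1, 639 to 720.4 against 454 to 545 FPKM for endothelium and 144.5 to 146 against 170.2 to 196 FPKM for ciliated cells, with none of their genes at 0. The part of these lists in the result was not tested.

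**Figure D5:**
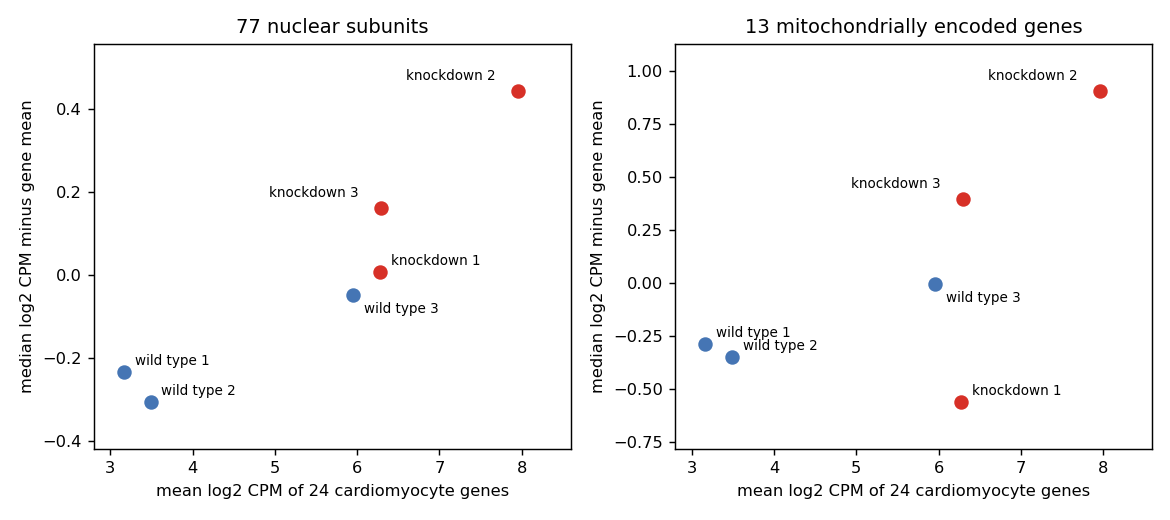
Median log2 CPM deviation of 77 nuclear subunits without muscle isoforms (left) and of the 13 mitochondrial genes (right) in each library, against the mean log2 CPM of 24 cardiomyocyte genes. The nuclear median is highest in knockdown 2, where the heart level is 7.96. Knockdown 1 and 3, at 6.28 and 6.29 by this mean, lie far apart for the mitochondrial genes, and the cause was not tested.

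The genes that feed, assemble and regulate the chain were read from lists of other genes, and none passed the adjusted threshold in edgeR. At an unadjusted edgeR p under 0.05, 8.48% of all genes were higher and 8.52% lower, and 3.34% were higher with the cardiomyocyte level as a covariate. Of 17 tested genes of the citric acid cycle and pyruvate dehydrogenase, 13 were higher and 0 lower by this measure, with a median log2 fold change of 0.49. With the covariate 0 of the 17 were higher and the median was 0.06. The 13 include Sucla2 of succinyl-CoA ligase (log2 fold change 0.56, edgeR adjusted p 0.18), fumarase Fh1 (log2 fold change 0.59, edgeR adjusted p 0.191) and Dld, the shared lipoamide dehydrogenase (log2 fold change 0.37, edgeR adjusted p 0.191). Of 17 fatty acid oxidation genes, 8 were higher and 0 lower, with a median of 0.23, and with the covariate 0 were higher and the median was 0.11. Acadl, the long-chain acyl-CoA dehydrogenase, stood at 67.3, 90.0 and 82.5 CPM in wild type and 131, 194 and 133 CPM in knockdown libraries (log2 fold change 0.93, edgeR adjusted p 0.119). Of 11 mitochondrial carriers and electron shuttles the counts were 3 and 0 and the median 0.29, and with the covariate 0 were higher and the median was 0.10. Slc25a4, the ADP/ATP carrier of heart and muscle, stood at 143, 147 and 241 against 271, 487 and 315 CPM (log2 fold change 1.01, edgeR adjusted p 0.176). The order of libraries for Slc25a4 is that of the mean log2 CPM of the heart genes, whose part in it was not tested.

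Genes that make or build the complexes had smaller medians. Of 39 assembly factors outside the name pattern, 7 were higher at an unadjusted edgeR p under 0.05, against 8.48% of all genes, and 0 lower, with a median log2 fold change of 0.16. Positive values were found for 32 of the 39, against 52.9% of all genes. In 14 every knockdown library lay above every wild type library, against 10.8%. With the cardiomyocyte covariate 2 were higher, against 3.34%, and the median was 0.04. The complex IV factor Cox14 had the smallest p (log2 fold change 0.30, edgeR adjusted p 0.176). Of 23 genes for replication, transcription and RNA processing of mitochondrial DNA, the counts were 1 and 0 and the median was 0.07, a share no larger than that over all genes, and with the covariate 0 were higher and the median was -0.0014. The 1 was Lrpprc, which stabilizes mitochondrial messenger RNA, at 36.7, 33.8 and 36.2 against 44.7, 58.7 and 47.9 CPM (log2 fold change 0.50, edgeR adjusted p 0.141). Of 16 regulators of mitochondrial biogenesis, the counts were 5 and 0 and the median was 0.11, and with the covariate 1 was higher and the median was 0.02. Esrra, the nuclear receptor ERR-alpha that acts on many of the genes described here, stood at 24.7, 23.9 and 26.8 CPM in wild type and 35.5, 37.0 and 33.7 CPM in knockdown libraries (log2 fold change 0.49, edgeR adjusted p 0.0942). These values are tight inside each group and do not overlap. Its relative Esrrg stood at 2.90, 1.41 and 4.36 against 6.61, 14.3 and 11.2 CPM (log2 fold change 1.88, edgeR adjusted p 0.146). The coactivator Ppargc1a stood at 13.7, 17.3 and 22.2 against 28.2, 51.4 and 28.4 CPM (log2 fold change 1.02, edgeR adjusted p 0.177). Both are expressed in heart, and both are highest in knockdown 2. The part of heart tissue in these values was not tested.

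Promoters from RefSeq (GRCm38.p6, 250 bases before to 50 after the start) were found for 76 of the 98 nuclear members, and were searched on both strands for letters known from binding sites. GCGCA and GCGC with 1 free base between them, read by nuclear respiratory factor 1 (NRF1), were in 25.0% of them, against 5.19% of 27025 promoters in all and 9.94% of the promoters of tested genes. CCGGAAG, of ETS factors, was in 25.0% against 9.93% and 17.6%, and AAGATGGC, of YY1, in 14.5% against 3.19% and 4.56%. AAGGTCA, of estrogen-related receptors (ERR), was in 10.5% against 5.38% and 4.07%. CTA and TAG with 4 free bases between them form a pattern looser than the site of the muscle factor MEF2. It was in 2.63% of members against 4.23% of all promoters, and in 4 of 22 cardiomyocyte genes with an entry. Its matches need not be MEF2 letters. The median log2 fold change was 0.43 for the 19 tested members with the NRF1 letters and 0.39 for the 56 without them. For the other motifs the medians with and without a match were 0.36 and 0.43 (ETS), 0.35 and 0.41 (YY1) and 0.31 and 0.40 (ERR). For the looser MEF2 pattern, with 2 members holding it, they were 0.46 and 0.40. The motif searches can overlap each other in a promoter, and a match describes letters, not a bound site. A few windows are printed along the gene's strand, with the matched letters in capitals, to show the same core in subunits of complexes I, II, IV and V. Sdha carries 3 such matches, and Atp5g2, the tested member with a negative log2 fold change, carries one too.
Sdha, chr13:74350319-74350348 (minus strand): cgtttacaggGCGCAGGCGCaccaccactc
Sdha, chr13:74350276-74350305 (minus strand): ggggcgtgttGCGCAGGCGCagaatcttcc
Sdhd, chr9:50603909-50603938 (minus strand): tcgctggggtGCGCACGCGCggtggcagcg
Cox6a1, chr5:115349101-115349130 (minus strand): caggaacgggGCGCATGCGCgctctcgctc
Ndufa11, chr17:56717692-56717721 (plus strand): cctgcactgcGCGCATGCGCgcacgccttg
Atp5g2, chr15:102671070-102671099 (minus strand): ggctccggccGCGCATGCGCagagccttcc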

How the data were processed

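Polyadenylated RNA from 6 whole lungs was sequenced as paired reads, per the labels' protocols. Tools listed in the submitters' processing notes are HTSeq 0.6.1, HISAT2 2.0.1 and cutadapt 1.9.1. No source used here gives the genome build, the strand setting or the treatment of reads that fit several places, so counts of overlapping genes (mt-Atp8 and mt-Atp6, mt-Nd4l and mt-Nd4) and of near-identical copies are uncertain. The deposited table holds raw counts and FPKM per gene and library. Per the file headers it also gives exonic gene sizes, from which the authors' FPKM were recomputed within 0.005.

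Counts were fitted with edgeR 4.0.16 in R 4.3.3 (filterByExpr, TMM, glmQLFit, group as the only term) over all genes, with Benjamini-Hochberg adjustment over the 17728 tested. Errors are SEs or 95% intervals from that fit, and the test was checked on simulated data. DESeq2 1.42.0, limma 3.58.1 on log2(FPKM + 1), other scalings and filters, embryo sex or the cardiomyocyte level as covariate, and leaving out each library were alternatives. Embryo sex was inferred from counts of the Y-linked gene Ddx3y in these libraries, not taken from a label. Depth was 14383415 to 19262837 counts, so 3 counts correspond to 0.156 to 0.209 CPM. Libraries of a group differed beyond sampling noise in every pair. The genes described, the lists and the tests were chosen with earlier results of these data known. Named are the 13 mitochondrial genes, per complex up to 4 members with the smallest p and those of highest and lowest level, isoform families, chosen core subunits, members with negative fold changes, and up to 3 genes per other list. Promoters are from RefSeq, and transcripts from GENCODE M21. 2 genes are not reported here.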

Additional observations from a re-analysis of the deposited data

How the results depend on the processing

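The number of genes called by edgeR, 6, became 81 without the low-count filter, 829 with DESeq2, 3 with limma on log2(FPKM + 0.1), 15 with robust edgeR, 0 with embryo sex as a covariate and 2 with the cardiomyocyte level as a covariate, and 0 to 17 when 1 library was left out. Nuclear members called were 0 in all of these except DESeq2, which called 24. The median log2 fold change kept its sign under every scaling, filter and test, and without 1 library it ranged from 0.28 (without knockdown 2) to 0.50 (without knockdown 1) for nuclear members and from 0.20 to 0.91, by the same libraries, for mitochondrial genes. With the cardiomyocyte level as a covariate the medians were 0.11 and -0.16. Under that covariate the log2 fold change was -0.081 for mt-Nd1, -0.018 for mt-Nd2, -0.35 for mt-Nd3, -0.13 for mt-Nd4, -0.59 for mt-Nd4l, -0.20 for mt-Nd5, -0.10 for mt-Nd6, -0.16 for mt-Cytb, -0.017 for mt-Co1, -0.099 for mt-Co2, -0.35 for mt-Co3, -0.37 for mt-Atp6, -0.63 for mt-Atp8, -0.033 for Cox6b1 and -0.10 for Ndufs1, each positive without it. When 1 library was left out, Prmt5 ranged from -0.13 to 0.0069 and Cox7a2l from -0.039 to 0.18, both crossing 0 without knockdown 1. Of the genes named, 20 passed the adjusted threshold with DESeq2 that did not with edgeR. The cause was not tested. No paired analysis was possible because nothing states which embryos share a litter or an extraction. Limits are the 3 libraries a group, heart muscle transcripts that differ several-fold between embryos, and the unknown treatment of shared reads. Depth limits members of few counts: mt-Nd3 had 10 to 46 counts per library, mt-Nd4l 5 to 49, Cox8b 8 to 203 and Cox7a1 18 to 150, the last 2 lowest in wild type 1 and 2.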
